A study of Bos taurus with 30 samples.

Results

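The bovine miRNAs from miR-2286 to miR-2490 were described in the anterior pituitary (the lobe of the gland that secretes its hormones) of 30 Holstein-Friesian bull calves. The deposited table held 1030 mature miRNAs, of which 241 had a number in this range. Of these, 95 were at 0 in all 30 libraries, 89 were above 0 in at least 1 library with a mean of at most 0.2 CPM (counts per 1e+06 reads on miRNAs, scaled by the authors), and 57 had a mean above 0.2 CPM. These 57 were selected on their number and on their mean over the 30 libraries, and miR-2419-3p was singled out in that choice for its levels by diet. At this cutoff the mean was worth 1.43 to 2.25 reads per library. Just above it were miR-2446 (mean 0.210 CPM), miR-2450a (0.233 CPM) and miR-2432 (0.235 CPM), and just below it miR-2388-5p (0.194 CPM), miR-2350 (0.185 CPM) and miR-2389 (0.185 CPM).

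A miRNA is cut from a hairpin precursor, and either arm of the hairpin (5p or 3p) can give the mature strand that guides silencing of matching mRNAs. One arm usually accumulates far above the other. The miRNAs of this number range were named when bovine small RNA was sequenced, and the function of most of them is not established. Many such miRNA genes lie inside protein-coding genes.

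Each library held small RNA of 1 calf taken at 12 weeks of age, with 15 calves on the HI diet and 15 on the MOD diet. The diets were fed from 2 weeks of age. HI calves received 1.5 kg of milk replacer in 10 litres per day with concentrate fed without limit, and MOD calves received 0.5 kg in 4 litres per day with at most 0.5 kg of concentrate. All calves were male and of 1 breed. The labels did not give the farm or sire of a calf.

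Libraries held 6650492 to 11086524 reads on miRNAs. A library at 0 can hide up to 3 reads, or 0.266 to 0.419 CPM, a limit for counting error alone. The pituitary endocrine markers miR-375 (mean 146057 CPM), miR-148a (93569 CPM) and miR-7 (17064 CPM) were abundant in the tissue. All 3 were measured, and their summed level was 201896 to 300781 CPM over HI calves and 243060 to 296225 CPM over MOD calves. The 3 red blood cell markers summed to 10578 to 24489 CPM over HI calves and 15557 to 27422 CPM over MOD calves. The study reported miR-451 and miR-144, which are among them, as higher in HI calves, so the sum does not stand for each marker. The 4 stromal markers summed to a median of 44837 CPM over HI calves and 44312 CPM over MOD calves. They reached 183141 CPM in HI replicate 1, against at most 76082 CPM in the MOD libraries. The epithelial marker miR-205 was at 113 to 402 CPM over HI calves and 192 to 749 CPM over MOD calves. Liver miR-122 did not exceed 0.209 CPM. Libraries of the 9 highest calf label numbers (5 HI, 4 MOD) stood apart from the other 21 in earlier results of these data, so values within these sets are given beside the diet differences of the named miRNAs nearest the threshold and of the arm ratios. In bulk tissue, fewer cells of a type and less RNA per cell cannot be told apart.

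Expression of the 57 miRNAs was low. Their median mean level was 0.685 CPM, against 13.4 CPM over the 566 miRNAs of the table with a mean above 0.2 CPM. Of the 57, 36 had a mean under 1 CPM, 17 had a mean of 1 to 10 CPM and 4 had a mean of 10 CPM or more. Together they held 0.0293% to 0.0496% of a library, with a mean share of 0.0389% ± 0.00482 in HI and 0.0363% ± 0.00446 in MOD calves (SD, n = 15 each). The top 4 held 79.0% of that signal. Expression was above 0 in all 30 libraries for 36 of the 57, and 18 had over 3 reads in every library.

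The top 4 were miR-2483-5p, miR-2419-5p, miR-2336 and miR-2299-5p. Expression of miR-2483-5p was 67.7 CPM at the lowest, 121.9 CPM at the median and 170.3 CPM at the highest in HI calves, and 92.6, 127 and 176 CPM in MOD calves. Its gene lies within the bounds of TENM1, which encodes a teneurin of the cell surface, and the diets overlapped over nearly their whole range. miR-2419-5p ran from 53.1 through a median of 118 to 189 CPM in HI calves, and from 44.3 through 91.2 to 221 CPM in MOD calves. Its coefficient of variation over the 30 calves was 39.7%, against 22.7% for miR-2483-5p. miR-2336, whose gene lies within no other gene, was the steadiest of the 4. Its mean was 43.5 ± 3.87 CPM on the HI diet and 42.7 ± 4.35 CPM on the MOD diet (SD, n = 15 each), and its coefficient of variation was 9.44%. For miR-2299-5p the means were 20.7 ± 4.00 CPM on HI and 20.3 ± 1.46 CPM on MOD (SD, n = 15 each). Its gene lies within B3GLCT, which encodes a glucosyltransferase of O-fucosylated proteins.

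The next 6 by mean lay between 4.82 and 7.0 CPM. They were miR-2484 (7.0 CPM), miR-2478 (6.45 CPM), miR-2483-3p (5.17 CPM), miR-2415-3p (5.04 CPM), miR-2339 (4.96 CPM) and miR-2320-5p (4.82 CPM). The gene of miR-2339 lies within ELAC2, which encodes a tRNA processing enzyme. The place of miR-2484 above miR-2478 rested on 1 library, described below with the other uneven miRNAs. Without that library the mean of miR-2484 was 5.39 CPM.

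**Figure D1:**
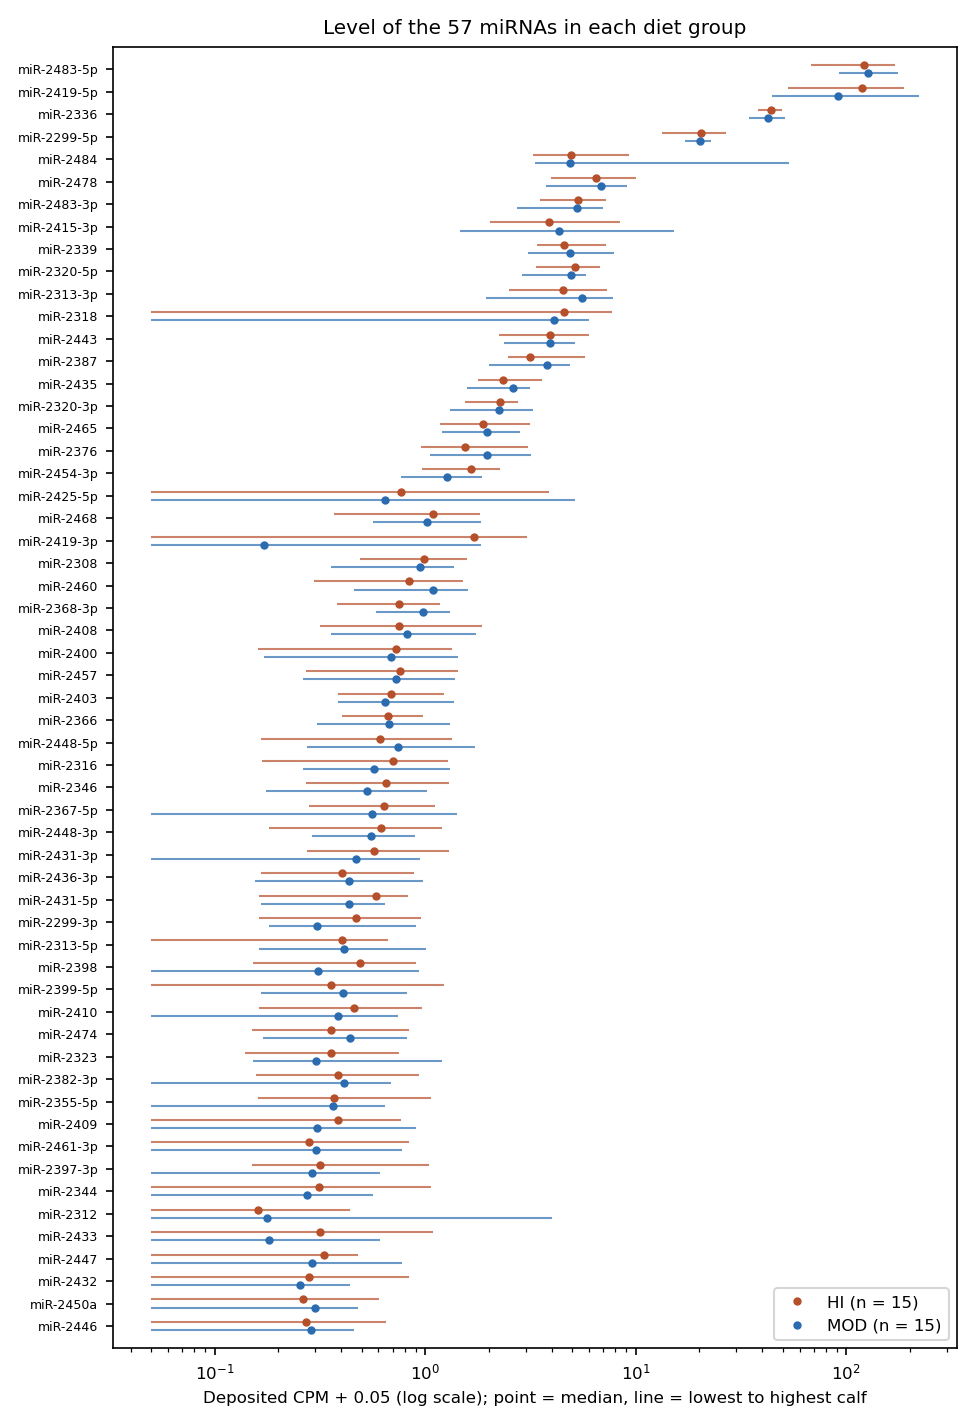
Expression of the 57 miRNAs in HI (orange) and MOD (blue) calves, as deposited CPM plus 0.05 on a log axis; points are medians and lines run from the lowest to the highest of 15 calves. The 4 highest miRNAs stand above 10 CPM, and lines that reach the left end belong to miRNAs with at least 1 library at 0.

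Whether diet changed expression of these miRNAs was tested with limma on log2(CPM + 1) over all 566 miRNAs, a scale that understates the change of low miRNAs. At FDR < 0.1, 15 of the 566 were called (2.65%), and of the 57 in the set 1 was called (1.75%). The called member was miR-2419-3p, which was chosen for this contrast, so nothing is read from that count. With a fold change above 1.5 on this scale required as well, 3 of the 566 (0.53%) and the same 1 member passed. Among higher calls alone the background was 8 of 566 (1.41%), against the same 1 of the 57 (1.75%). None of the 57 was called lower in HI calves, where the background was 7 of 566 (1.24%), and none was lower at an unadjusted p under 0.05. The median log2 difference, HI minus MOD, was 0.02 over the 57 and 0.02 over the 566, and 61.4% of the 57 and 56.2% of the 566 were positive.

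None of the other 56 passed FDR < 0.1 in limma, and 2 of them had an unadjusted p under 0.05. With miR-2419-3p that made 3 of the 57, against 67 of the 566. The 2 were miR-2431-3p (log2 difference 0.20, SE 0.09, FDR = 0.360) and miR-2454-3p (0.17, SE 0.08, FDR = 0.377). The gene of miR-2454 lies within DNMT1, which encodes the maintenance DNA methyltransferase. Expression of miR-2454-3p ran from 0.913 to 2.23 CPM over HI calves and from 0.721 to 1.81 CPM over MOD calves, so that the ranges overlapped. The differences in the sets of 21 and 9 were 0.22 and 0.10 for miR-2431-3p, and 0.14 and 0.23 for miR-2454-3p. The log2 differences of the 56 ran from -0.25, for miR-2484, to 0.35, for miR-2419-5p. Without MOD replicate 3, which held 53.6 CPM of miR-2484, the value of miR-2484 was -0.04. The 95% confidence intervals were widest for miR-2425-5p (-0.75 to 0.52), miR-2318 (-0.40 to 0.77), miR-2484 (-0.75 to 0.25), miR-2415-3p (-0.65 to 0.30) and miR-2419-5p (-0.03 to 0.73). An interval on this scale does not bound the fold change of CPM for the 36 miRNAs under 1 CPM. For example, the means of miR-2431-3p were 0.596 ± 0.269 CPM on HI and 0.395 ± 0.261 CPM on MOD (SD, n = 15 each).

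**Figure D2:**
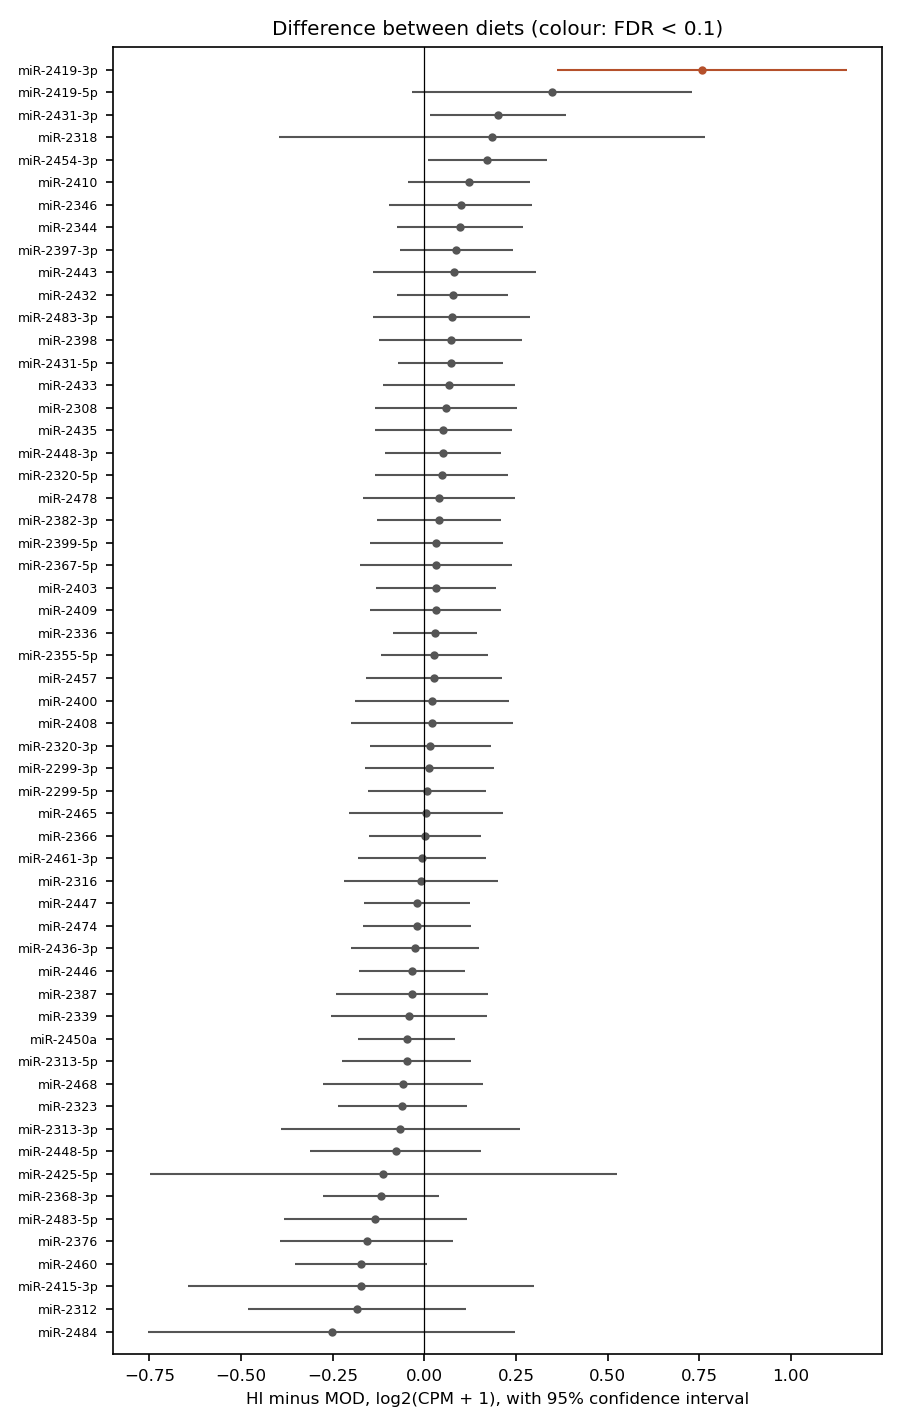
Difference between diets for each of the 57 miRNAs, as HI minus MOD on the log2(CPM + 1) scale with 95% confidence intervals from limma; colour marks FDR < 0.1, and the scale compresses changes of miRNAs near or under 1 CPM. The only coloured point is miR-2419-3p at 0.76, and the other 56 lie between -0.25 and 0.35.

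Expression of miR-2419-3p, the minor arm of its hairpin, is given as a description because it helped to choose the set. In HI calves it was at 0 reads in 2 libraries (replicates 4 and 11), at 4 to 10 reads in 3 and over 10 reads in 10. In MOD calves it was at 0 in 6 libraries, at 1 to 3 reads in 2, at 4 to 10 reads in 4 and over 10 reads in 3. The highest library was HI replicate 2 with 28 reads (2.99 CPM), and the highest MOD library was replicate 7 with 17 reads (1.78 CPM). The diets overlapped at both ends, since libraries at 0 and libraries over 10 reads were found in each. The mean of HI calves was 1.51 ± 0.857 CPM and that of MOD calves 0.482 ± 0.594 CPM (SD, n = 15 each), a difference of 0.76 on the log2(CPM + 1) scale with SE 0.19. It was 0.93 in the set of 21 libraries and 0.32 in the set of 9. With each calf left out in turn it ran from 0.70 to 0.84. Over the other 12 alternatives it ran from 0.72 to 1.86, the highest with a pseudocount of 0.1, and it was 0.85 with log2 miR-486 as a covariate. The quasi-likelihood test of edgeR on the recovered reads gave 1.57 and did not call it (FDR = 0.109), while 11 of the 12 did. The fit added after the data were seen is among the 11. A filter of edgeR (filterByExpr) removed this miRNA and is not among the 12. Because miR-2419-3p was chosen for this contrast, nothing is read from these calls.

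The other arm of the same hairpin was measured from 352 to 2102 reads per library and was not used in the choice. Its log2 difference was 0.35 (SE 0.19) and did not pass the test (limma, FDR = 0.534). Within the 21 libraries it was 0.41 and within the other 9 it was 0.18. The gene of miR-2419 lies within no other gene of the annotation.

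The arms of miR-2419 varied together over the 30 calves. Pearson's r was 0.82 and Spearman's rho 0.84, both with p = 1e-05, the smallest value that the 1e+05 resamples of the two-sided permutation test can give, and 7e-05 after Benjamini-Hochberg adjustment over 7 hairpins. Without the 2 calves farthest from the median of the 5p arm, r was 0.83. It was 0.84 within HI calves, 0.82 within MOD calves, 0.82 within the 21 libraries and 0.90 within the 9. Points of 1 calf share a library and its scaling.

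The 3p arm made up 1.27% of the pooled miR-2419 reads of HI libraries and 0.528% of those of MOD libraries. These shares contain the miR-2419-3p reads for which it was chosen, so nothing is read from their difference. In the 20 libraries with over 3 reads of it, its share was 0.506% to 2.20%, with a median of 1.12%. The 8 libraries at 0 held 352 to 829 reads of the 5p arm, and there a hidden 3 reads would be 0.362% to 0.852% of the hairpin. That limit was under the lowest share of the 20 libraries in only 1 of the 8, MOD replicate 12. That lowest share rested on 4 reads, in MOD replicate 14, just over the cutoff of 3 reads that defined the 20. In all 8 the limit was under the median share of 1.12%, but that median is over libraries picked for having over 3 reads. Over all 30 libraries the median share was 0.866%, close to the highest limit of 0.852%.

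**Figure D3:**
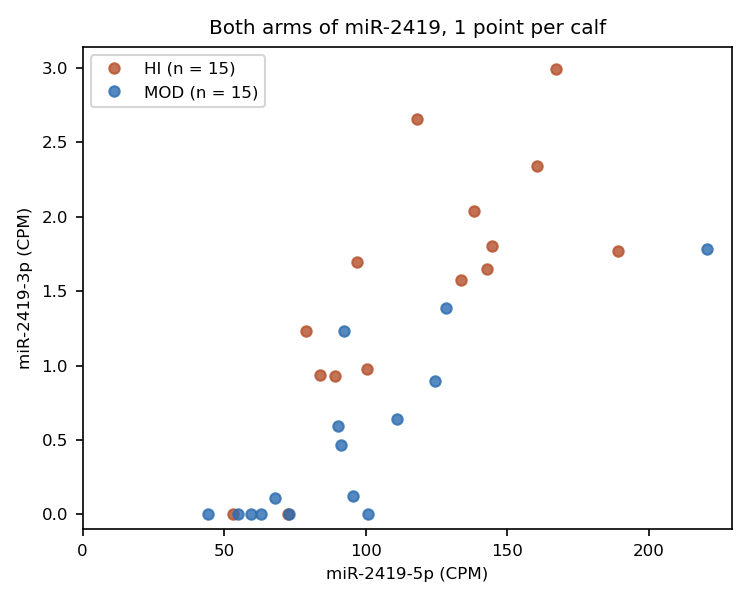
Expression of the 3p arm of miR-2419 (vertical axis, CPM) against its 5p arm (horizontal axis, CPM), with 1 point per calf, HI in orange and MOD in blue. The 8 calves at 0 on the vertical axis lie between 44.3 and 101 CPM on the horizontal axis, and every calf above 101 CPM has the 3p arm above 0.

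Of the 50 hairpins in the set, 7 had both arms among the 57, and 32 of the 57 had no arm in their name. For miR-2419 the 5p arm was 107 times the 3p arm in mean CPM, for miR-2299 49.9 times, for miR-2483 24.6 times and for miR-2320 2.22 times. The arms were near each other for miR-2448 (5p 1.22 times 3p) and miR-2431 (3p 1.17 times 5p). In miR-2313, whose gene lies within GRAMD1B, a sterol transfer protein, the 3p arm led by 11.7 times and was the higher arm in all 30 libraries. For the 6 hairpins other than miR-2419, r between the arms ran from -0.15 to 0.25 and no p passed (permutation test, adjusted p at least 0.443). In all of these 6, the lower arm had a mean of 5.17 CPM or less, and that of miR-2419 was also low, at 0.994 CPM.

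Whether diet shifted the choice of arm was tested for the 4 hairpins with both arms above 0 in every library. None passed an adjusted p of 0.05, and none had an unadjusted p under 0.05 (two-sided permutation test, smallest adjusted p = 0.633). Low reads limit the ratios of miR-2299 and miR-2448, whose SDs within a diet were 0.861 to 1.35. miR-2299-3p had 1 to 8 reads per library, miR-2448-5p 1 to 16 and miR-2448-3p 1 to 10. The smallest p belonged to miR-2483, whose log2 ratio of 5p to 3p was 4.51 ± 0.440 in HI and 4.74 ± 0.416 in MOD calves (SD, n = 15 each; difference -0.23, permutation p = 0.158). The differences were 0.01 for miR-2299, 0.03 for miR-2320 and -0.32 for miR-2448. Between the label sets the difference changed sign for miR-2299 and miR-2320 and kept its sign for miR-2483 and miR-2448. In the 21 and the 9 libraries the difference was 0.19 and -0.30 for miR-2299, -0.07 and 0.30 for miR-2320, -0.08 and -0.52 for miR-2483, and -0.0015 and -0.92 for miR-2448. The difference between the sets was not tested.

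Some miRNAs varied between calves by more than counting gives. The variance of the reads was over 2 times their mean in 17 of the 57 and over 5 times in 10, where counting alone gives a ratio near 1. The ratio rises with level and also takes in the depth of the libraries, and the 10 include the steady miR-2336 and miR-2299-5p. Among miRNAs under 10 CPM, it was over 5 in 11.3% of the 53 members and in 15.5% of the 213 others, with medians of 1.39 and 1.75. The highest ratios belonged to miR-2419-5p (181), miR-2484 (80.5), miR-2483-5p (61.1), miR-2415-3p (15.4) and miR-2312 (15.3). Relative to their level, miR-2312 and miR-2484 varied far more than miR-2483-5p, with coefficients of variation of 266% and 129.6% against 22.7%. Without the highest library of each, those of miR-2312 and miR-2484 were 102% and 41.3%. miR-2312 had only 69 reads in all.

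No library lay between 0 and 11 reads for miR-2318. Its gene lies within MADD, which encodes an exchange factor for the RAB3 proteins of secretory vesicles. It was at 0 reads in HI replicate 4 and MOD replicates 12 and 14, and at 11 to 68 reads in each of the other 27 libraries. HI replicate 4 and MOD replicate 12 were also at 0 for miR-2419-3p, whereas MOD replicate 14 held 4 reads of it. The 3 libraries at 0 were among the 21 with lower label numbers, and the 9 others ran from 2.43 to 5.41 CPM. The mean of HI calves was 4.10 ± 1.94 CPM and that of MOD calves 3.56 ± 1.75 CPM (SD, n = 15 each).

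miR-2425-5p was spread over low and high calves in both diets. It was at 0 in 6 libraries, at 1 to 3 reads in 8, at 4 to 10 reads in 3 and over 10 reads in 13, up to 44 reads in MOD replicate 10. Over 10 reads were found in 6 HI and 7 MOD calves, and the medians were 6 and 5 reads. Its 3p arm, with a mean of 0.119 CPM no member of the set, was highest at 7 reads in each of HI replicates 8 and 15, where the 5p arm had 34 and 33 reads.

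A single library dominated miR-2312 and miR-2484. miR-2312 had 69 reads in all, of which 33 (47.8%) were in MOD replicate 2, and the next library, MOD replicate 7, had 6. It was at 0 in 9 libraries. Its gene lies within GRIK4, a kainate receptor subunit gene, and overlaps that of miR-2284j, which was at 0.358 CPM in MOD replicate 2 and 0.664 CPM on average. miR-2484 had 411 reads (53.6 CPM) in MOD replicate 3, or 23.4% of its reads, and the next library, MOD replicate 8, had 105. Without MOD replicate 3, the mean of miR-2484 was 5.19 ± 1.63 CPM on the HI diet (SD, n = 15) and 5.60 ± 2.78 CPM on the MOD diet (SD, n = 14). A share of over 20% in 1 library was found for 2 of the 57 (3.51%) and for 5 of the 566 (0.883%). miR-2312 passed the cutoff of 0.2 CPM only through MOD replicate 2, without which its mean was 0.140 CPM. The cutoff on the mean thus helped to make the count of 2, and nothing is read from it. miR-2433 was at 0 in 5 libraries and had at most 10 reads.

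**Figure D4:**
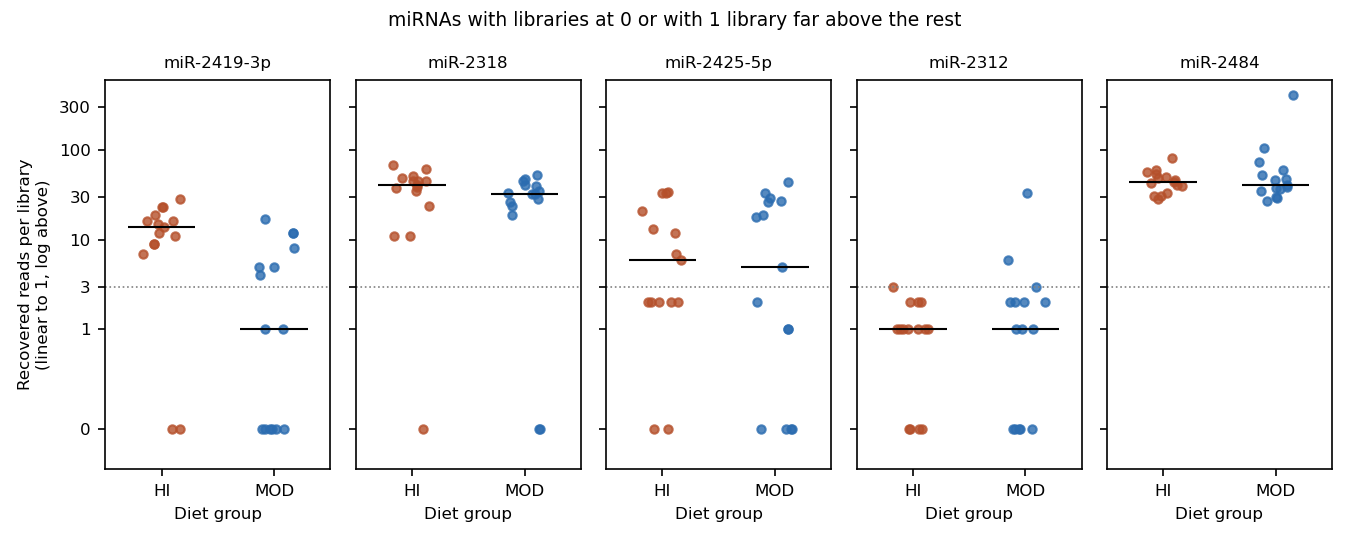
Recovered reads per library, 1 point per calf, for 5 miRNAs with libraries at 0 or with 1 library far above the rest; the vertical axis is linear to 1 and logarithmic above, bars are medians and the dotted line marks 3 reads. miR-2318 is at 0 in 3 libraries and at 11 to 68 reads in 27, and miR-2312 and miR-2484 have 1 MOD library at 33 and 411 reads.

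The set of 9 libraries was compared with the other 21 in the same table, with diet in the model. Of the 566 miRNAs, 111 (19.6%) passed FDR < 0.1 in limma, and of the 57 members 2 passed (3.51%). Both fell in the 9 libraries, where the background of lower calls was 56 of 566 (9.89%). None of the 57 was called higher, against 55 of 566 (9.72%). The members lie low in the table, and a comparison at matched level was not made.

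miR-2415-3p was lower by a log2 difference of -0.64 (SE 0.23, FDR = 0.0645). It was 3.33 CPM in the 5 HI calves of the 9 and 5.13 CPM in the other 10 HI calves (exact permutation p = 0.131), and 2.97 CPM in the 4 MOD calves against 6.48 CPM in the other 11 (exact permutation p = 0.0469). miR-2483-5p was lower by -0.33 (SE 0.12, FDR = 0.0664). Within HI calves it was 103 CPM in the 5 and 132 CPM in the 10 (exact permutation p = 0.119), and within MOD calves 112 CPM in the 4 and 140.2 CPM in the 11 (exact permutation p = 0.0821). Both were lower on average in each diet, and their ranges overlapped. With miR-486, a red blood cell miRNA, as a covariate only miR-2415-3p remained called.

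**Figure D5:**
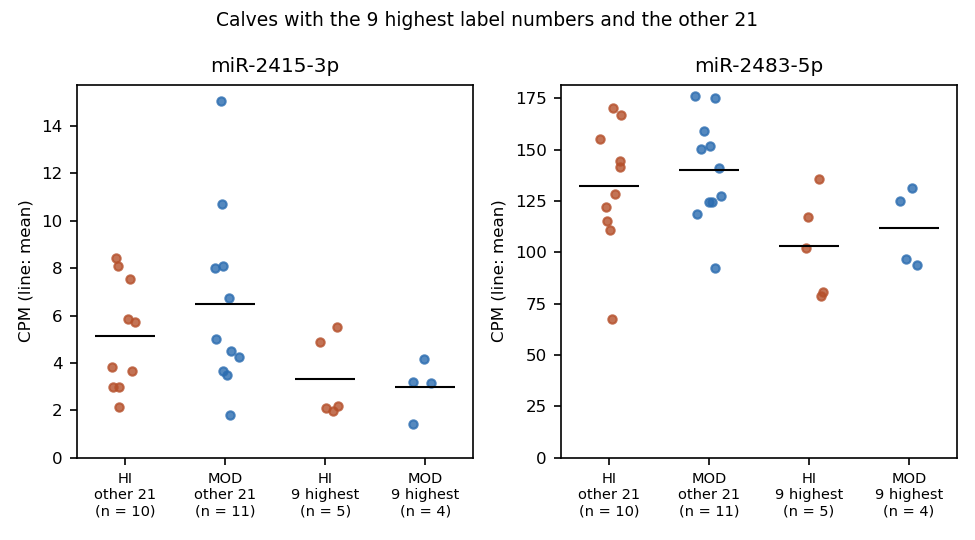
Expression of miR-2415-3p (left) and miR-2483-5p (right) in CPM, 1 point per calf, split by diet and by whether the calf is among the 9 highest label numbers; bars are means. In both panels the bars of the 9 lie below those of the other 21 within each diet, with overlapping points.

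The first of the last 4 digits of the label put the calves into 4 ranges, the only other grouping of calves that the labels give. With diet in the model, 1 of the 566 miRNAs differed between ranges at FDR < 0.1 in limma (0.177%) and none of the 57, with none of the 57 and 19 of the 566 at an unadjusted p under 0.05. Neither edgeR nor DESeq2 called a member. The interaction of diet with the set of 9 was called in limma for none of the 566 (24 at an unadjusted p under 0.05), and so for none of the 57 (2 at an unadjusted p under 0.05). These 2 were miR-2382-3p and miR-2320-5p, which were named after their values were seen.

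Of the 57 miRNAs, 56 matched 49 miRNA genes of RefSeq on ARS-UCD2.0, and miR-2355-5p was not matched. Of the 49 genes, 41 lay within the bounds of a protein-coding gene, 2 within those of a long non-coding RNA gene only and 6 within no gene. The 6 were the genes of miR-2316, miR-2336, miR-2419, miR-2436, miR-2448 and miR-2478. Only 4 of the 49 had another miRNA gene within 10 kb. One is MIR2443, which lies beside the let-7a-3 and let-7b genes, and another is MIR2450A, which lies with MIR2450B, MIR2450C and MIR2450D in HTT, the gene of huntingtin. Expression of the host mRNAs was not analysed here.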

How the data were processed

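The deposited values were a normalized signal per mature miRNA and calf, namely CPM divided by TMM factors. Per the study's methods and labels, the authors trimmed adapters with cutadapt (its version differs between the methods and the labels), filtered reads to 15 to 28 bases, discarded rRNA, tRNA, snRNA and snoRNA reads and ran miRDeep2 on known miRNAs with ARS-UCD1.2. The low values of a library were multiples of 1 read, which gave back whole reads. At least 93.7% of a library's values up to 20 reads were whole within 0.05 reads, and the TMM factors recomputed from them differed by at most 6.64e-06. None of the 57 had fractional reads. No 2 libraries were copies (435 pairs, chi-square per degree of freedom at least 76.3).

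HI and MOD calves were compared with limma 3.58.1 (R 4.3.3, eBayes, trend = TRUE) on log2(CPM + 1) over the 566 miRNAs with a mean above 0.2 CPM, with Benjamini-Hochberg adjustment, FDR < 0.1 and fold change > 1.5. The script was tested on simulated data. Single values and arm ratios were compared by permutation in SciPy 1.17.1. The quasi-likelihood test of edgeR 4.0.16 on the recovered reads called 12 of 566 for diet, none of them in the set. Alternatives were DESeq2 1.42.0, other filters, scalings, a pseudocount of 0.1, covariates, and leaving out each of the 30 calves in turn.

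The members and lists were chosen with earlier results of these data known, and the boundary of the 9 libraries was drawn on miR-99b. Named miRNAs were both arms of miR-2419, members called for diet or label set (at most 5 each), the 10 with the highest mean, hairpins with both arms in the set, the 3 on either side of the cutoff, the 5 with the highest ratio of variance to mean, and the 5 with most libraries at 0 among those reaching 10 reads. Others were named after their values were seen. A further rule, on shared seeds, was not applied because mature sequences were not used here. Of the 9 marker lists, those not given with the results were white blood cell (451 to 898 CPM over the 30 calves), striated muscle (5.15 to 77.3 CPM), neural (345 to 933 CPM) and endothelial (8998 to 16172 CPM). The epithelial list held miR-205 and miR-203, and miR-203 was not found under that name. Gene names came from RefSeq on ARS-UCD2.0. The files use ARS-UCD1.2, so no coordinates are given. The mRNA and protein data of the study were not analysed here.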

Additional observations from a re-analysis of the deposited data

How the results depend on the processing

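One alternative, edgeR with the label set as a block, was chosen after seeing the data. For diet, with or without the fold change threshold, the count of 1 member was 0 with edgeR's filterByExpr, which left 19 members to test and removed miR-2419-3p, and 0 with edgeR's quasi-likelihood test. It was 1 in the other alternatives, including the added fit, and ran from 1 to 1 over the 30 fits that each left out 1 calf. Because miR-2419-3p was chosen for this contrast, nothing is read from these counts. None of 13 other named members was called in any of 557 values, whose smallest FDR was 0.268. The 13 did not include miR-2431-3p and miR-2454-3p, which only the counts cover. For the label set, the count of 2 became 6 with log2 total reads as a covariate, 1 with miR-486 as a covariate, and 4 with a set of 8 against 22. The cause was not tested. With 8 against 22, 2 of the 4 (miR-2431-3p and miR-2465) were higher. The counts of 0 for label number range and for arm ratio did not change. A cutoff of 0.1 CPM gave 71 members and one of 1 CPM gave 21. No paired analysis was possible because the replicate numbers used here follow accession order and tie no calves together. The calves had been blocked on age, bodyweight, sire and farm, and the labels do not give the blocks. Depth limits the 36 members under 1 CPM, where 0.2 CPM is 1.43 to 2.25 reads. P-values set a difference or correlation against the spread between calves of this trial and treat the calves as independent. Shared sires and farms were not in the models.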
